A study of Mus musculus with 6 samples.

Results

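Genes of the heat shock response and of the unfolded protein response, with the stress genes next to them, were compared between marrow neutrophils that lack miR-223 and wild-type ones, both from mice. The members are 15 probe sets for 9 genes, taken by their probe set numbers out of the 45101 rows of the deposited table, whatever their values. Each probe set is a group of short array probes against a transcript. The gene of each number came with the list of members and was not checked here, because the rows of the table carry numbers and no gene names. The study hybridized 6 Affymetrix arrays, 3 for each genotype. The null group carried a loss of the microRNA miR-223, and the wild-type group carried none. In both groups the cells came straight from the marrow and were enriched with a Gr-1 antibody and magnetic beads, by the same protocol, and the labels name no treatment. Gr-1 binds Ly6G on neutrophils as well as Ly6C on monocytes. The labels give no strain, age, sex or number of animals behind a sample, nor how the null allele was made. Whether the 3 samples of each genotype are separate mice is not stated, so p-values here reflect only how these samples vary, which may be technical. Markers of neutrophils and of other cells, and miR-223 itself, were not analysed here.

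Cells meet misfolded protein with several programmes. In the cytosol, heat or damage frees the transcription factor HSF1, which switches on Hsp70 chaperones and their helpers. In the endoplasmic reticulum, the sensors IRE1, ATF6 and PERK start the unfolded protein response: IRE1 splices the Xbp1 mRNA into its active form, ATF6 raises the chaperone Hspa5, and PERK slows translation while letting ATF4 be made, which in turn raises Ddit3 (CHOP). Neutrophil precursors fold large amounts of granule protein in the endoplasmic reticulum. Hmox1 belongs to the response to haem and oxidants, controlled by NRF2 and BACH1. miR-223 is a microRNA of the myeloid lineage that lowers the transcripts it pairs with through its seed.

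The microRNA that the null cells lack and the promoters of some member genes are shown first, from RefSeq sequences of build GRCm38.p6. The activity of these promoters was not measured. miR-223-3p lies at chrX:96242884-96242905 on the plus strand, and the capitals mark its seed, bases 2 to 8. Hspa1a and Hspa1b are neighbours on chromosome 17. Their sequence is given for the 150 bases before the start of transcription, at chr17:34972157-34972306 and chr17:34959239-34959388, both on the minus strand, with the match to the heat shock element, the binding motif of HSF1, in capitals. Hspa5 is set beside them as the chaperone of the endoplasmic reticulum, at chr2:34771940-34772089 on the plus strand, with its match to the endoplasmic reticulum stress element, the motif of ATF6, in capitals.
miR-223-3p: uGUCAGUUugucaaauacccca
Hspa1a: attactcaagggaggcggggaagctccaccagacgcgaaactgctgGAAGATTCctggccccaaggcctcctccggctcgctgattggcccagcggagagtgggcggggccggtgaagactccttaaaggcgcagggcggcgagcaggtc
Hspa1b: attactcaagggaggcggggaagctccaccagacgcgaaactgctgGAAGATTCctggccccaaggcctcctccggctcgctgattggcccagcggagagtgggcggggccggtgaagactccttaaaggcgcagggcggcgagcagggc
Hspa5: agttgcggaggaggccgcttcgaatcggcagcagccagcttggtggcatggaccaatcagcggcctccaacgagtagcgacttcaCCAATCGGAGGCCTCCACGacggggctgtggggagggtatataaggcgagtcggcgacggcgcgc

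The Hspa1a and Hspa1b stretches differ at 1 of 150 bases, and the whole windows of 300 bases (250 before and 50 after the start) at 4, which is 98.7% identity. Of the 9 genes, 8 had 1 or more windows. Hmox1 had none, so its promoter was not searched for any motif. Heat shock elements were searched as GAANNTTC or TTCNNGAA, which read the same on both strands. They were found in Hspa1a and Hspa1b, 1 match each with the letters GAAGATTC, and in Hsph1, and 15.1% of the 32851 windows of all genes hold 1 or more. The endoplasmic reticulum stress element was searched as CCAAT and, after a gap of 9 bases, CCACG, on both strands. It was found in Hspa5, while 0.119% of all windows hold it. The antioxidant element TGACNNNGC, searched on both strands, matched Hsph1 and Dnajb1, and 12.4% of all windows. The unfolded protein element TGACGTGG and the amino acid response element ATTGCATCA, also searched on both strands, matched no member window, against 0.676% and 0.192% of all windows. A match is a description of the letters.

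Array medians lay between 4.81 and 4.84 (log2). By their hybridization controls, which are bacterial and phage sequences added to each array, they fell into a brighter set of null replicates 1 and 2 with wild-type replicate 1 (mean 10.94 to 10.98) and a dimmer set of null replicate 3 with wild-type replicates 2 and 3 (mean 10.72 to 10.81). The labels name no batch. The sets cut across the genotypes unevenly, so the results are also given with a block for the set, and within each set. The 3′ minus 5′ difference of Gapdh, a sign of RNA quality and labelling, ran from 0.0379 to 0.335 on the null arrays and from 0.102 to 0.244 on the wild-type arrays, and the groups overlapped. By technical set it ran from 0.230 to 0.335 on the brighter arrays and from 0.0379 to 0.172 on the dimmer arrays, without overlap. Its part in the results was not tested.

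Within this list, signal for the inducible Hsp70 pair Hspa1a and Hspa1b rose in null cells, and the probe sets do not show whether both genes did. A probe set was tested when its mean over the 6 arrays was at or above the median of all probe sets, 4.83, and 13 of the 15 members were. Both Hsph1 probe sets were under it. With limma and an adjusted p under 0.05 (Benjamini-Hochberg over 22519 tested probe sets), 2 of the 13 were higher in null cells, 1 for Hspa1a and 1 for Hspa1b, and 0 were lower. The one for Hspa1b entered the test only through its null arrays, so its call is no independent support. Of all tested probe sets, 3.84% passed, 2.78% higher and 1.06% lower. At an unadjusted p under 0.05, 4 of the 13 passed: the 3 probe sets of Hspa1a and Hspa1b, and Hmox1. Of the 22519 tested probe sets, 4215 passed at that level. With the technical set as a block, 4 of the 13 passed, all higher, against 11.0% of all tested probe sets (5.57% higher and 5.38% lower). Those 4 were the 3 Hspa1 probe sets and Ddit3. The median difference, null minus wild type, was 0.06 over the 13 tested members and −0.01 over all tested probe sets. In 6 of the 13 members the 3 null values did not overlap with the 3 wild-type values, 5 above and 1 below, and among all tested probe sets 24.6% were separated in this way, 12.8% above and 11.8% below. The Hspa1 probe sets read a pair of near-identical genes and are not independent of each other.

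**Figure D1:**
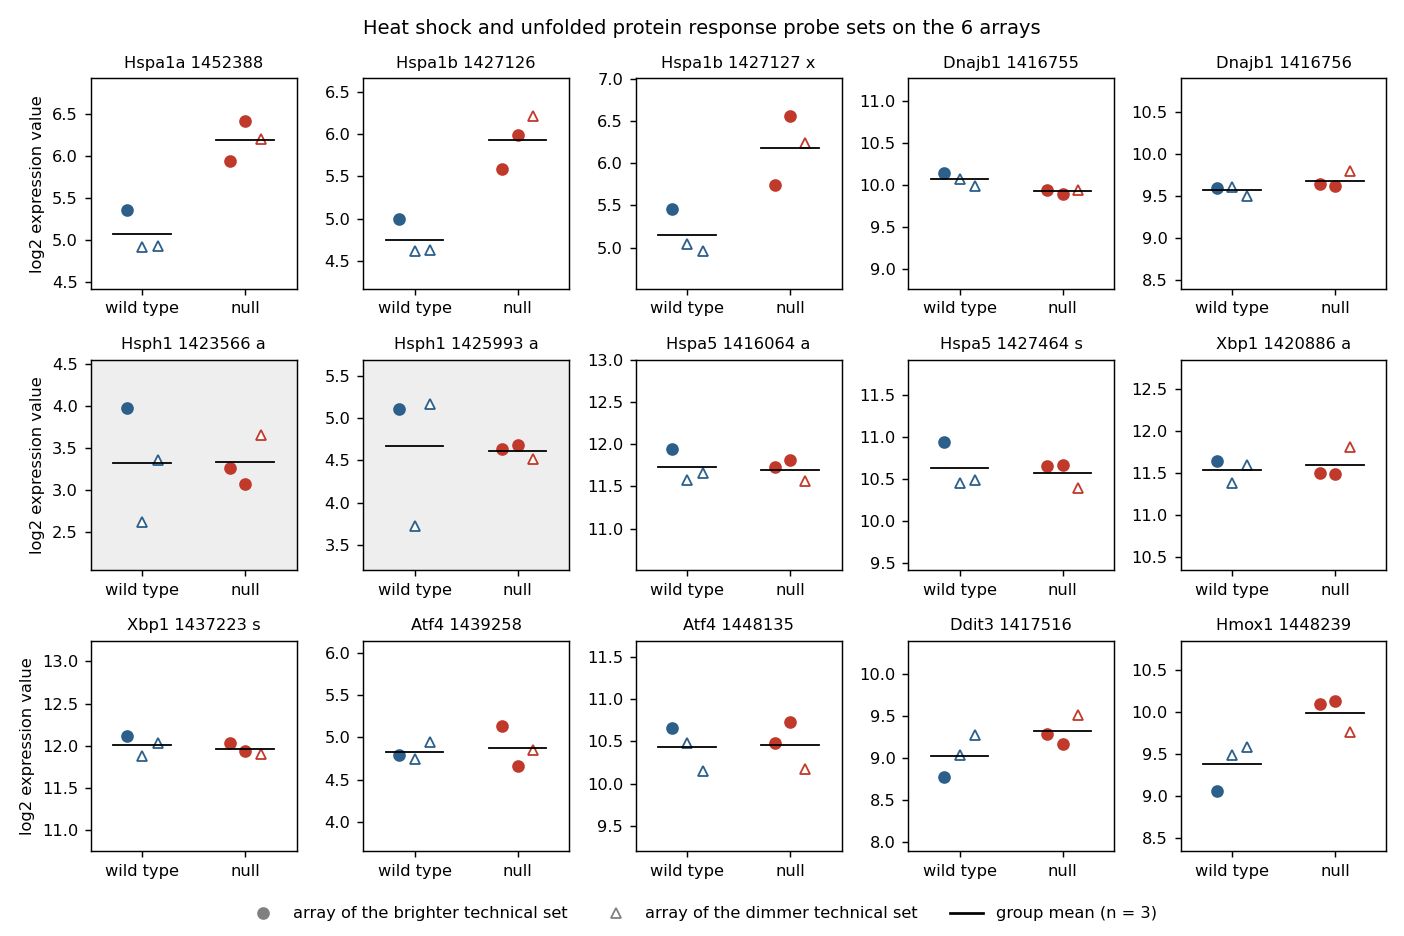
Log2 expression values of the 15 probe sets (all panels span the same log2 range) on the 3 wild-type (blue) and 3 null (red) arrays. Filled circles are arrays of the brighter technical set, open triangles those of the dimmer set, lines are group means, and grey panels are the Hsph1 probe sets under the filter. The null arrays lie above the wild-type arrays in the 3 Hspa1 panels, for Hmox1 and, narrowly, for Dnajb1 1416756_AT. They lie narrowly below them for Dnajb1 1416755_AT, while the Hsph1, Hspa5, Xbp1, Atf4 and Ddit3 panels overlap.

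Hspa1a encodes the stress-inducible Hsp70 of the cytosol, which binds unfolded stretches of protein and refolds them. Its probe set 1452388_AT read 5.94, 6.42 and 6.20 on null replicates 1, 2 and 3, and 5.36, 4.92 and 4.93 on wild-type replicates 1, 2 and 3. The lowest null array lay 0.58 log2 units above the highest wild-type array, which was replicate 1. The means were 6.18 ± 0.238 and 5.07 ± 0.249 (SD, n = 3 each), a rise of 1.12 (standard error 0.175) that equals 2.17-fold (limma adjusted p = 0.0205). Of all tested probe sets, 111 had a larger rise. Wild-type replicates 2 and 3 lay close to the filter of 4.83, and whether their signal was above background is not known here. With an offset of 16 on the linear scale the rise was 0.84. With the technical set as a block the rise was 1.05 (limma adjusted p = 0.0123). Within the brighter set it was 0.82, and within the dimmer set 1.27. In these bulk samples more cells of a type and more RNA per cell cannot be told apart.

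Hspa1b encodes a nearly identical Hsp70, and probes for either gene may read both, so the pair is reported as uncertain in its split. Probe set 1427126_AT read 5.59, 5.99 and 6.22 on the null arrays and 4.99, 4.61 and 4.63 on the wild-type arrays. Its groups were 0.60 log2 units apart at their nearest arrays, and the rise was 1.19 (standard error 0.189), which is 2.28-fold (limma adjusted p = 0.0208). Its wild-type mean, 4.74 ± 0.214 (SD, n = 3), lay under the filter and its null mean, 5.93 ± 0.321 (SD, n = 3), above it, so it entered the test through the group in which it was high. In the fit without a filter its adjusted p was 0.0193 (limma). Whether the wild-type signal was above background is not known here, so the fold is that of the deposited values. With an offset of 16 on the linear scale the rise was 0.85 for this probe set and 0.84 for 1452388_AT. With the block the rise was 1.202 (limma adjusted p = 0.0131), and within the sets it was 0.80 (brighter) and 1.603 (dimmer).

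The other Hspa1b probe set, 1427127_X_AT, carries the suffix that Affymetrix gives to probes that can match more than one gene. It read 5.74, 6.56 and 6.24 on the null arrays and 5.45, 5.04 and 4.96 on the wild-type arrays, again with no overlap. The difference was 1.03 (standard error 0.229), which is 2.04-fold, and did not pass the threshold (limma adjusted p = 0.0551). It passed with the set as a block, at 0.97 (limma adjusted p = 0.0425). In all 3 probe sets null replicate 1 was the lowest null array and wild-type replicate 1 the highest wild-type array. Both belong to the brighter set, and in the fit with the block the set itself had no effect past the threshold on any of the 3 (limma adjusted p from 0.565 to 0.959). That fit takes the set to shift both genotypes alike, so whether the rise differed between the sets was not tested. Deviations from the group means correlated between these probe sets at 0.79 to 0.96 over the 6 arrays, a description of arrays that share labelling and of probes that share sequence. With members of other genes the correlations reached 0.74 (1427126_AT with Xbp1 1420886_A_AT) and −0.86 (1427127_X_AT with Atf4 1439258_AT).

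The calls for Hspa1a and Hspa1b depended on single arrays. Over all tested probe sets the count also fell when 1 array was left out, from 864 to between 85 and 592. For 1452388_AT the call ended without null replicate 1, 2 or 3 (limma adjusted p = 0.0601, 0.0898 and 0.0578) and without wild-type replicate 2 or 3 (limma adjusted p = 0.0543 and 0.0630), with rises between 1.00 and 1.24 in those fits. It stayed without wild-type replicate 1, at 1.26 (limma adjusted p = 0.0194). For 1427126_AT the call ended without null replicate 2 or 3 (limma adjusted p = 0.0947 and 0.0525) and without wild-type replicate 2 or 3 (limma adjusted p = 0.0564 and 0.0646), at rises between 1.05 and 1.16. With null replicates 1 and 2 averaged into 1 sample, the rises were 1.12 and 1.26 (limma adjusted p = 0.0602 and 0.0589). The calls with the block also depended on single arrays. They ended for 1452388_AT without null replicate 3 or wild-type replicate 1 (limma adjusted p = 0.134 and 0.0747), and for 1427126_AT without null replicate 2 or 3 (limma adjusted p = 0.0533 and 0.121). For 1427127_X_AT the block call ended without null replicate 2 or 3 (limma adjusted p = 0.106 and 0.329) and without wild-type replicate 1 or 3 (limma adjusted p = 0.140 and 0.0798).

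Dnajb1, the Hsp40 co-chaperone that delivers clients to Hsp70 and starts its ATP cycle, gave opposite directions in its 2 probe sets. Probe set 1416755_AT read 9.95, 9.90 and 9.94 on the null arrays and 10.14, 10.08 and 9.997 on the wild-type arrays. All null values were the lower ones, by a difference of −0.14 (standard error 0.0726) (limma adjusted p = 0.354). Probe set 1416756_AT read 9.64, 9.62 and 9.80 against 9.60, 9.61 and 9.50. Here all null values were the higher ones, by 0.12 (standard error 0.0831) (limma adjusted p = 0.528). Neither passed the threshold, and the 95% intervals were −0.31 to 0.03 and −0.08 to 0.31. The change of Hspa1a exceeded that of the Dnajb1 probe sets by 1.26 and 0.999 log2 units, and the 2 Dnajb1 changes differed by 0.26. In each of these 3 comparisons, made on the difference between the probe sets on each array, the groups did not overlap (two-sided exact permutation p = 0.1, adjusted p = 0.1, the smallest that 3 arrays against 3 allow). That separation followed from the array values already given, so these tests add no support to the differences.

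Hsph1, an Hsp110 protein that makes Hsp70 release its nucleotide, was read by 2 probe sets under the filter. Probe set 1423566_A_AT read 3.26, 3.08 and 3.66 on the null arrays and 3.98, 2.62 and 3.37 on the wild-type arrays. Probe set 1425993_A_AT read 4.63, 4.68 and 4.52 against 5.12, 3.72 and 5.18. Wild-type replicate 2 was the lowest array in both, and the groups overlapped. In the fit of all probe sets without a filter, in which 1.55% passed the threshold, the differences were 0.01 (95% interval −0.66 to 0.68) and −0.06 (−0.82 to 0.70), with limma adjusted p of 0.997 and 0.977. Both intervals include the difference found for Hmox1 in either direction, so a change of that size was not detectable here.

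Of the unfolded protein response genes, 0 of 4 probe sets passed the threshold, beside 3.84% of all tested probe sets, a share at which few or no calls among 4 say nothing particular about them. Hspa5, also called BiP, is the Hsp70 of the endoplasmic reticulum and holds its stress sensors inactive until misfolded protein draws it away. Probe set 1416064_A_AT read 11.73, 11.81 and 11.57 on the null arrays and 11.95, 11.57 and 11.66 on the wild-type arrays, a difference of −0.03 (95% interval −0.28 to 0.23, limma adjusted p = 0.947). Probe set 1427464_S_AT read 10.65, 10.67 and 10.39 against 10.94, 10.45 and 10.49, a difference of −0.06 (95% interval −0.39 to 0.27, limma adjusted p = 0.892). The upper bounds of both intervals lie below the rise of each Hspa1 probe set. In both, wild-type replicate 1 was the highest array, and every brighter array lay above every dimmer one. For 1427464_S_AT the set effect passed the threshold in the fit with the block (dimmer minus brighter −0.37 log2 units, limma adjusted p = 0.0482), as it did for 1.94% of all tested probe sets. Within the sets the differences were −0.18 and −0.05 for the first probe set and −0.28 and −0.08 for the second, brighter before dimmer.

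Xbp1 encodes the transcription factor that is made in active form after IRE1 has spliced its mRNA. The probe sets measure total signal, and spliced and unspliced mRNA were not told apart here. Probe set 1420886_A_AT read 11.50, 11.50 and 11.81 on the null arrays and 11.65, 11.38 and 11.60 on the wild-type arrays, a difference of 0.06 (95% interval −0.20 to 0.32, limma adjusted p = 0.852). Probe set 1437223_S_AT read 12.04, 11.94 and 11.90 against 12.11, 11.87 and 12.03, a difference of −0.05 (95% interval −0.23 to 0.14, limma adjusted p = 0.834). The groups overlapped in both. The first changed sign between the sets, from −0.15 in the brighter to 0.32 in the dimmer set.

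Atf4 and Ddit3 stand at the branch of PERK, where control of ATF4 lies mainly in its translation, which arrays do not measure. For Atf4, probe set 1448135_AT read 10.49, 10.73 and 10.17 on the null arrays and 10.66, 10.48 and 10.15 on the wild-type arrays, a difference of 0.03 (95% interval −0.36 to 0.43, limma adjusted p = 0.954). Every brighter array lay above every dimmer one, and with the set as a block the difference was −0.10 (limma adjusted p = 0.662). The other Atf4 probe set, 1439258_AT, had a mean of 4.85 over all arrays, close to the filter, and read 5.13, 4.66 and 4.85 against 4.79, 4.74 and 4.95. Its difference was 0.05 (95% interval −0.28 to 0.38, limma adjusted p = 0.908).

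Ddit3 encodes CHOP, a factor that promotes cell death when stress of the endoplasmic reticulum lasts. Its probe set 1417516_AT read 9.28, 9.16 and 9.51 on the null arrays and 8.77, 9.03 and 9.28 on the wild-type arrays. Wild-type replicate 3 reached into the range of the null arrays, and the other wild-type arrays lay below it. The difference was 0.29 (standard error 0.148), which is 1.22-fold, and did not pass (limma adjusted p = 0.354). With the technical set as a block it was 0.40, or 1.32-fold, and passed (limma adjusted p = 0.0381). Within the sets it was 0.45 and 0.35, brighter before dimmer. With the block, the call ended without null replicate 1, 2 or 3 (limma adjusted p = 0.119, 0.0984 and 0.164), without wild-type replicate 1 (0.287) and with no filter (0.0570).

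**Figure D2:**
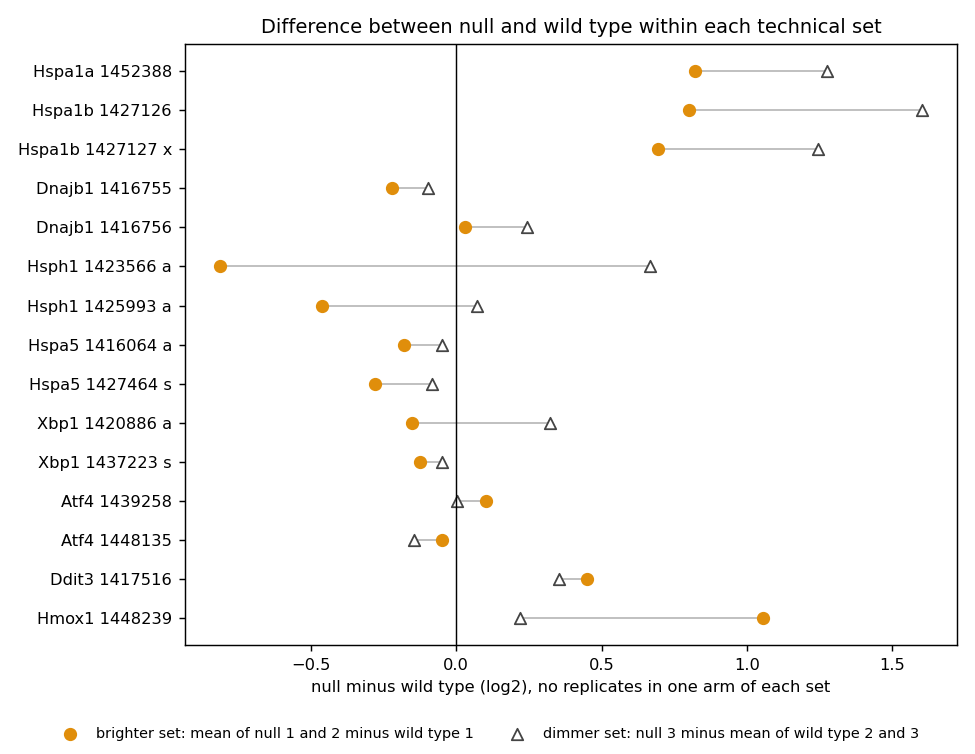
Difference between null and wild type (log2) computed within each technical set: filled circles for the brighter set (null replicates 1 and 2 against wild-type replicate 1), open triangles for the dimmer set (null replicate 3 against wild-type replicates 2 and 3). The 3 Hspa1 probe sets, Hmox1 and Ddit3 lie above 0 in both sets, with Hmox1 at 1.06 and 0.22, and the Hsph1 probe sets and 1 of the Xbp1 probe sets lie on opposite sides of 0.

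Hmox1, haem oxygenase, breaks haem down to biliverdin, iron and carbon monoxide. Its probe set 1448239_AT read 10.09, 10.13 and 9.76 on the null arrays and 9.05, 9.49 and 9.58 on the wild-type arrays. All null arrays lay above all wild-type arrays, by 0.17 log2 units at the nearest, which were null replicate 3 and wild-type replicate 3. The means were 9.99 ± 0.205 and 9.38 ± 0.282 (SD, n = 3 each), a difference of 0.62 (standard error 0.161) or 1.53-fold, which did not pass the threshold (limma adjusted p = 0.0850). It passed with array weights (limma adjusted p = 0.0419) and missed it with the technical set as a block, at 0.64 (limma adjusted p = 0.0527). Within the brighter set it was 1.06, and within the dimmer set 0.22.

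**Figure D3:**
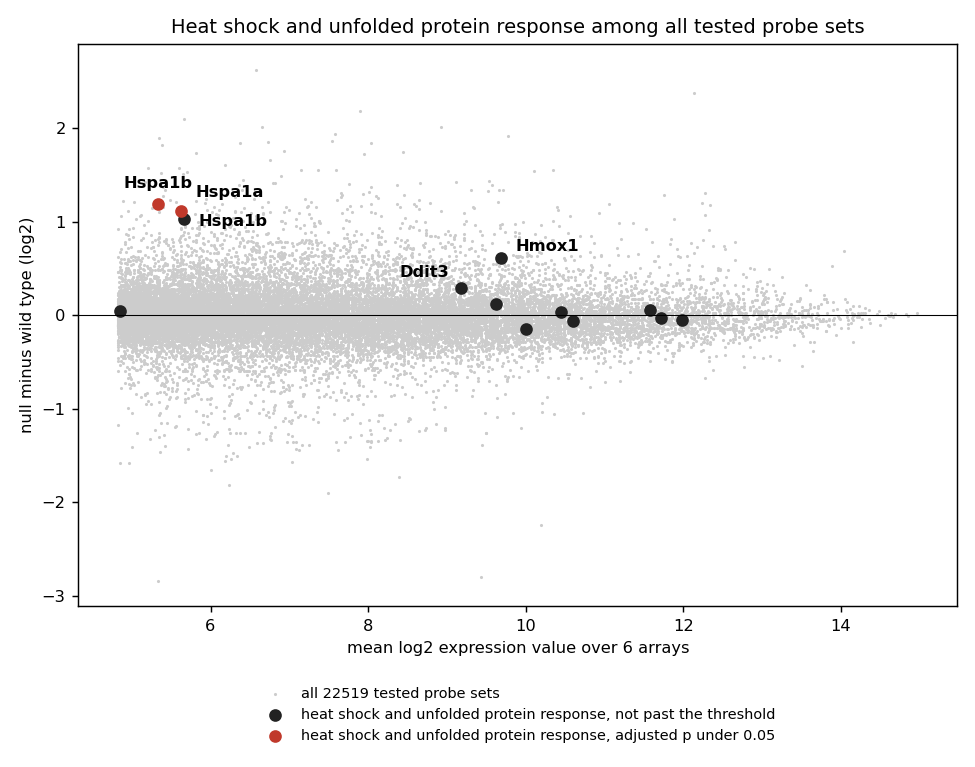
Difference between null and wild type (log2) against mean log2 value for all 22519 tested probe sets (grey) and for the 13 tested members (black, and red where the adjusted p was under 0.05). The 3 Hspa1 points lie at the upper edge of the grey cloud at means of 5.34 to 5.67, and 671 grey points have a larger rise than Hmox1.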

How the data were processed

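Deposited log2 expression values were used, 1 for each probe set of each 1-colour Affymetrix array (biotin label, per the labels' protocols). Per the submitters' processing notes the software was GCOS; neither its version nor the normalization is given in the sources used here. That the scale is log2 was read from the values (2.12 to 14.98). Sorted columns differed by at most 0.0890, so no scaling was added.

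After 64 control probe sets were set aside, 45037 were left. Those whose mean reached the median of all means, 22519, were tested with limma 3.58.1 in R 4.3.3 (lmFit, eBayes with intensity trend, two-sided, no covariate) and Benjamini-Hochberg adjustment. Intervals are 95% intervals of that fit. Every member is named, each probe set on its own. Exact permutation tests used scipy 1.17.1, and figures matplotlib 3.10.9. The number of arrays limits the precision, with a median standard error of 0.128. Technical sets were split at the largest gap between the arrays in the mean of 18 hybridization controls (0.131, the next 0.0501). Alternatives were the filter, blocks by replicate number and set, no trend, array weights, an offset of 16 on the linear scale, averaging null replicates 1 and 2, and leaving out each array. The members, lists and tests were chosen with earlier results of these data known. Planned lists of further stress genes and cell markers, with their settings, need probe set names and were not analysed here. Promoter and microRNA sequences came from RefSeq tables of build GRCm38.p6.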

Additional observations from a re-analysis of the deposited data

How the results depend on the processing

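Of the 13 tested members, 2 passed the threshold. The count was 2 with no filter, no intensity trend, an offset of 16 or the replicate number as a block, 3 with array weights, 4 with a block for the technical set, and 0 with null replicates 1 and 2 averaged. It was also 0 with the filter at the 75th percentile, where 9 members were tested and the Hspa1 probe sets were not among them. It ranged from 0 to 2 when 1 array was left out. With the set as a block it was 3 with no filter and ranged from 1 to 5 when 1 array was left out; both of these settings were chosen after seeing the data. The count over all tested probe sets moved too. It was 864 of 22519, 700 of 45037 with no filter, 607 with no intensity trend, 863 with the offset, 1238 with array weights, 791 of 11260 with the stricter filter, 119 with null replicates averaged and 85 to 592 with 1 array left out. With the set block it was 2466, 2098 of 45037 with no filter, and 123 to 2909 with 1 array left out. The fit with 5 members past the threshold, without wild-type replicate 2, was the one with 2909. In each setting in which they were tested, the 3 Hspa1 probe sets, Hmox1, Ddit3 and both Dnajb1 probe sets kept their direction.

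Members near 0 changed sign. With array weights the Hspa5 differences were 0.040 for 1416064_A_AT and 0.036 for 1427464_S_AT. For Atf4 1448135_AT the difference was −0.039 with null replicates averaged and −0.096 with the set block, filtered or not. For Hsph1 1423566_A_AT it was −0.074 with the set block and no filter. Over the fits that left out 1 array, with and without the set block, the differences ranged from −0.178 to 0.085 for Hspa5 1416064_A_AT, −0.280 to 0.096 for Hspa5 1427464_S_AT, −0.151 to 0.323 for Xbp1 1420886_A_AT, −0.127 to 0.0077 for Xbp1 1437223_S_AT, −0.074 to 0.162 for Atf4 1439258_AT and −0.158 to 0.181 for Atf4 1448135_AT. None of these sign changes came with a call, and their cause was not tested.

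Both genotypes carry replicates 1 to 3. Deviations from the group means correlated at 0.211, −0.124 and 0.371 for same-numbered arrays, and null replicate 2 correlated better with wild-type replicate 1 (0.373) than with its own number, so no pairing was assumed. With the replicate block 857 probe sets passed over the whole table, and the count among the members was 2.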
